A study of Arabidopsis thaliana with 4 samples.

Results

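The genes described here are 36 nuclear genes of the photosynthetic apparatus of Arabidopsis thaliana. They were chosen by locus from a fixed list, which was made with earlier results of these data known. They comprise 4 LHCA, 5 LHCB1, 3 LHCB2 and 6 LHCB3 to LHCB6 antenna genes. The others are 8 photosystem I (PSA) and 5 photosystem II (PSB) subunit genes, 4 RBCS genes and RCA. All 36 were found among the 33316 loci in the tables, and all 36 passed the filter on low counts, which left 19024 genes tested. Polyadenylated RNA was sequenced from 2 libraries of the mol1-1 mutant and 2 libraries of WT, both in the Col-0 background. MOL1 is a receptor-like kinase gene known as a negative regulator of the cambium, the meristem that thickens the stem. Each library came from the lowest 1 cm of the inflorescence stem of plants 15 to 20 cm tall, grown on soil at 21 °C for 3 weeks in short days (8 h light) and then in long days (16 h light). The labels do not say how many plants went into a library or whether the libraries of a genotype came from separate plants, so the p-values below measure only the spread between these libraries. The time of day of harvest and the lesion of the mol1-1 allele are not stated in these labels.

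In green plant cells the light-harvesting complexes bind chlorophyll and pass excitation energy to the reaction centres of photosystem I and photosystem II in the thylakoid membrane, and Rubisco fixes carbon dioxide in the chloroplast stroma. The antenna proteins, many small photosystem subunits and the small subunit of Rubisco are made from nuclear genes and imported, while the reaction centre proteins and the large subunit of Rubisco are made from chloroplast genes. The outer stem of Arabidopsis carries chloroplasts, whereas wood cells and fibres lose theirs as they mature. Nuclear photosynthesis genes are known to respond to light, the circadian clock and sugar.

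The family copies are close enough in sequence to share reads, so the letters that set them apart are shown first. The 5 LHCB1 genes encode the most abundant protein of the trimeric photosystem II antenna and lie in separate clusters on 2 chromosomes. LHCB1.2 (AT1G29910), LHCB1.1 (AT1G29920) and LHCB1.3 (AT1G29930) follow each other on chromosome 1 with gaps of 1153 and 1915 bp, and LHCB1.5 (AT2G34420) and LHCB1.4 (AT2G34430) lie 1038 bp apart on chromosome 2, on opposite strands. No protein-coding gene lies between neighbours in either cluster in the RefSeq annotation of TAIR10.1. The 60-base coding window with the most differences is printed with the 15 columns that are not the same in all 5 copies in capitals. It covers coding bases 208 to 267 of LHCB1.1, LHCB1.2 and LHCB1.3, 205 to 264 of LHCB1.4 and 202 to 261 of LHCB1.5, counted from 1 at the start codon.
LHCB1.1: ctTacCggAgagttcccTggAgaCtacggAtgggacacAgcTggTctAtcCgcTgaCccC
LHCB1.2: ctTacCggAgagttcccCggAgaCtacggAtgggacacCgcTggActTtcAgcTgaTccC
LHCB1.3: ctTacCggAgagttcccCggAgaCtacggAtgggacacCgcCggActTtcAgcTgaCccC
LHCB1.4: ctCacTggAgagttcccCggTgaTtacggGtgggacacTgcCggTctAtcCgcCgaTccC
LHCB1.5: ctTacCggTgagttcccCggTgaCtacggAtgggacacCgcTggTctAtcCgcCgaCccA
Over the whole coding sequence, LHCB1.1 and LHCB1.3 were 96.1% identical and LHCB1.2 and LHCB1.3 were 96.4% identical. LHCB1.4 matched its neighbour LHCB1.5 at 92.5% of bases, with a longest identical run of 122 bases, and LHCB1.3 at 87.0%.

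The RBCS genes, which encode the Rubisco small subunit, have a similar layout. RBCS3B (AT5G38410), RBCS2B (AT5G38420) and RBCS1B (AT5G38430) follow each other on chromosome 5 with gaps of 2264 and 1095 bp, and RBCS1A (AT1G67090) lies alone on chromosome 1. Coding bases 20 to 79 of the 4 genes are printed, with the 16 columns that differ in capitals.
RBCS1A: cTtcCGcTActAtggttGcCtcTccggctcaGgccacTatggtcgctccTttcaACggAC
RBCS1B: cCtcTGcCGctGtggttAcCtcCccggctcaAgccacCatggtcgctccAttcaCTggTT
RBCS2B: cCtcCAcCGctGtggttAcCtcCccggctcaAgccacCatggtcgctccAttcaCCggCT
RBCS3B: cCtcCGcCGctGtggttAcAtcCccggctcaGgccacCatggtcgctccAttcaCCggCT
The B copies were 96.7% to 97.3% identical to each other, and RBCS1B and RBCS3B shared a run of 230 identical bases. RBCS1A was 90.4% to 90.6% identical to them. In LHCB2, the other main trimer protein, LHCB2.2 (AT2G05070) and LHCB2.1 (AT2G05100) are neighbours 22517 bp apart on chromosome 2, with 91.1% identity and a shared run of 137 bases.

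The deposited tables give both total and unique exon reads per gene, which shows what this likeness does to the counts. Under 90% of exon reads were unique in every library for 11 of the 36 genes, against 5.49% of all genes tested. These were LHCA2, the 5 LHCB1 genes, LHCB2.1, LHCB2.2 and the 3 RBCS B copies, and they are uncertain as single genes, since the handling of shared reads is not stated. RBCS1B had the lowest unique share, 54.6% and 53.6% in the mol1-1 libraries and 53.5% and 58.6% in the WT libraries, with Wilson 95% intervals that together span 49.9% to 62.6% and cover counting error only. LHCB2.2 had 62.6% to 64.1% and LHCB2.1 62.9% to 64.6% over the 4 libraries. LHCB1.3, the most abundant of the 36, had 76.1% to 79.1%. Each of the other 25 genes had at least 98.7% unique reads in every library. The RefSeq TAIR10.1 exons, which need not be those of the deposited counts, gave the same division into 11 and 25 genes. Here 50-base words that occur once in the nuclear genome made up 70.5% of LHCB2.2, 79.5% of LHCB1.1, 88.0% of RBCS1B and 100% of the 25 others. The order within the 11 differed, since RBCS1B had the lowest unique share of reads but not of such words. Read length is not stated, and 50 bases was a choice. The log2 fold changes from unique reads differed from those of total reads by at most 0.08, for RBCS3B.

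**Figure D1:**
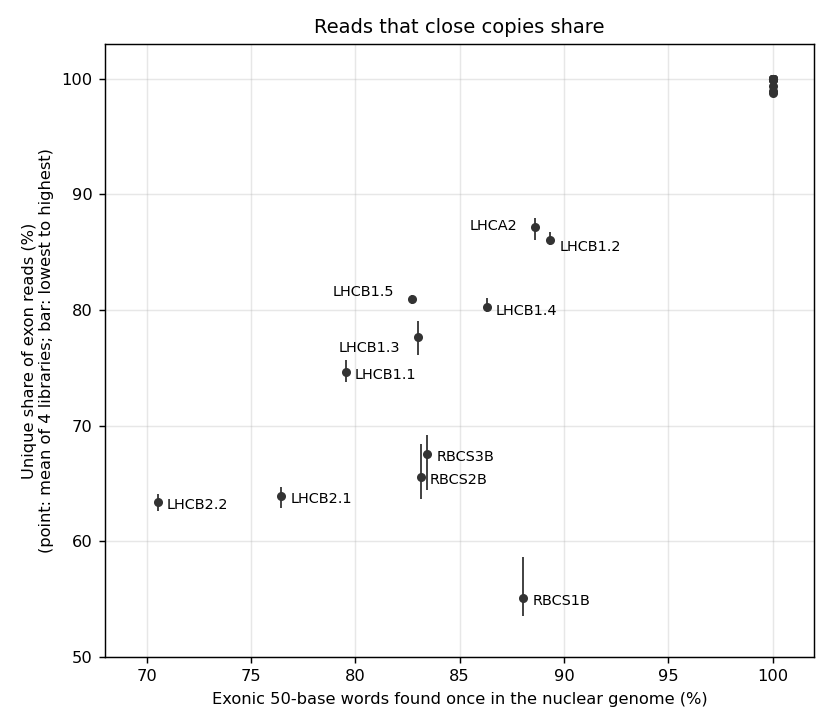
Unique share of exon reads in percent (vertical, mean of the 4 libraries with bars to the lowest and highest) against the share of exonic 50-base words found once in the nuclear genome in percent (horizontal), 1 point per gene. The 11 named genes lie below 90% on the vertical axis and the 25 others sit together at 100% on the horizontal axis.

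The libraries held 37059413 and 28570901 total exon reads in mol1-1 and 30794836 and 28017346 in WT, for replicates 1 and 2. MOL1 had 2.96 and 2.96 RPKM (exon reads per kilobase, per 1000000 reads) in the mol1-1 libraries, against 9.75 and 9.43 RPKM in the WT libraries, in the direction of the labels (edgeR quasi-likelihood test with Benjamini-Hochberg adjustment, log2 fold change -1.66, adjusted p = 0.0217). Stem tissue markers were present, among them the secondary wall cellulose synthase gene CESA4, the phloem gene SUC2 and the cambium gene PXY. The epidermal marker PDF1 was near 0 in 3 of the 4 libraries, with 0.150 and 0.166 RPKM in mol1-1 and 2.47 and 0.169 RPKM in WT.

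Many of the 36 genes were abundant transcripts of the stem base, and a few were not. They took 2.82% and 4.02% of all exon reads in the mol1-1 libraries and 2.94% and 2.87% in the WT libraries. Of the 100 genes with the highest mean RPKM, 15 were from this set, with LHCB1.3 in rank 2, LHCB1.5 in rank 4 and RBCS1A in rank 18 over the mean of the 4 libraries, while PSBS, LHCB1.4, LHCB2.3, RBCS2B, LHCB4.3 and RBCS1B held ranks 1831 to 4733. The mean levels ranged from 27.9 RPKM for RBCS1B to 4688 RPKM for LHCB1.3, and single counts from 563 to 201884 exon reads per gene and library. By group, LHCB1 supplied 33.9% and 37.5% of the summed RPKM of the 36 genes in mol1-1 and 34.6% and 34.8% in WT, which made it the largest of the 7 groups in each library. The LHCA genes followed with 14.3% to 15.8% over the 4 libraries, and the 5 PSB genes supplied the least of the groups other than LHCB2, with 6.95% to 7.80%.

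**Figure D2:**
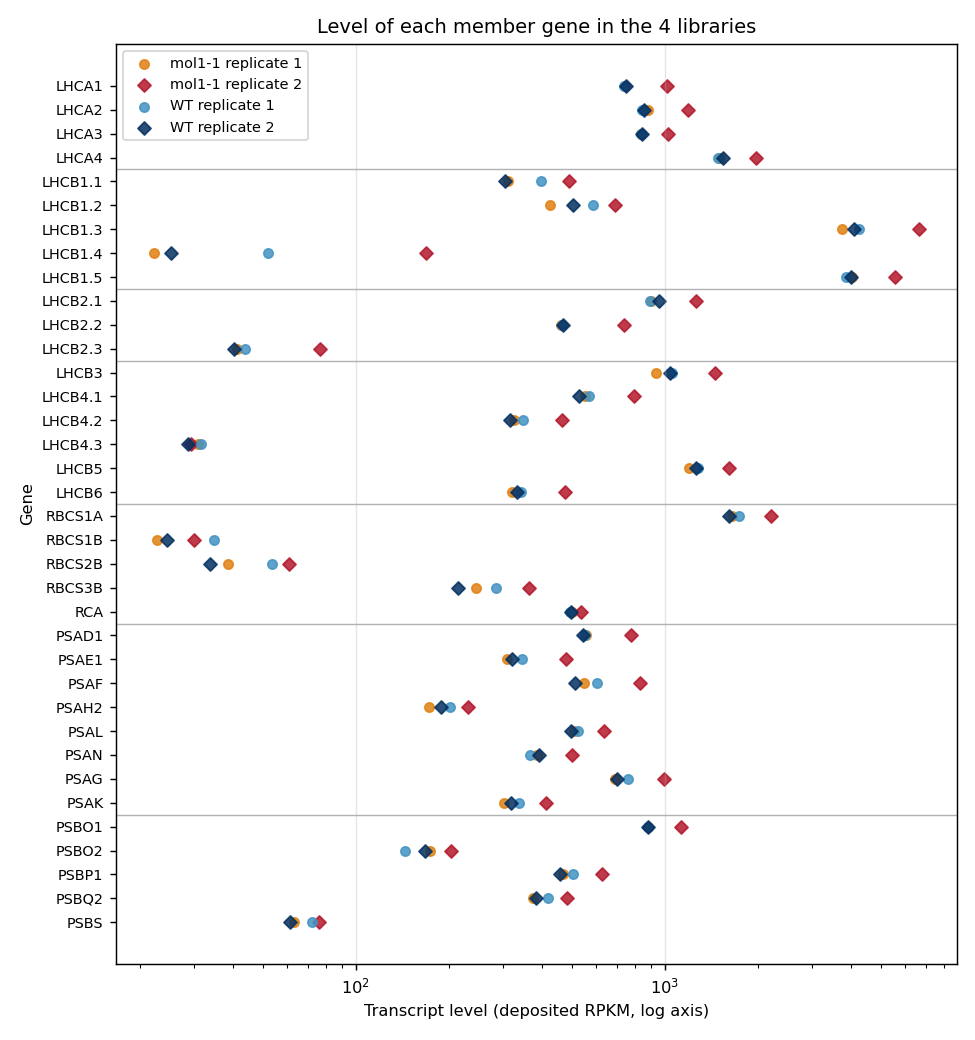
Level of each of the 36 genes in RPKM on a log axis (horizontal), 1 row per gene, with circles for replicate 1 and diamonds for replicate 2 of mol1-1 (orange, red) and WT (light blue, dark blue). The mol1-1 replicate 2 library is the rightmost point for 34 of the 36 genes (33.5% of all genes), the exceptions being LHCB4.3 and RBCS1B.

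None of the 36 genes changed between mol1-1 and WT by edgeR's quasi-likelihood test. At an adjusted p of 0.05, 0 were higher and 0 lower, where 0.189% of all genes tested were called higher and 0.0105% lower. Their adjusted p-values ran from 0.952 to 0.997, and 0 of 36 had an unadjusted p under 0.05, against 5.94% of all genes. DESeq2, which called 1.36% of all genes higher and 0.168% lower, and limma-voom, with 0.163% and 0.0105%, also called 0 of the 36. Standard errors of the log2 fold change ran from 0.12 to 0.86 with a median of 0.22, so a log2 difference of the size of the median estimate, 0.23, was not detectable with 2 libraries a genotype.

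The estimates nevertheless leaned to one side. The log2 fold change was above 0 for 35 of the 36 genes, against 47.8% of all genes, with a median of 0.23 against -0.01 for all genes. It ranged from -0.14 for RBCS1B to 1.32 for LHCB1.4. On counts per 1000000 reads (CPM) scaled by TMM (trimmed mean of M-values), the libraries of the genotypes did not overlap for 14 genes, all higher in mol1-1, where 16.9% of all genes were placed so and 16.8% the other way. On the deposited RPKM only 5 genes did not overlap, namely LHCA2, LHCB1.5, RCA, PSAD1 and PSBO2, against 13% of all genes, and 0 were lower in mol1-1 without overlap, against 21.3%.

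That lean came with 1 of the 2 mutant libraries. The mol1-1 replicate 2 library was the highest of the 4 for 34 of the 36 genes, against 33.3% of all genes, on scaled CPM, and mol1-1 replicate 1 was the highest for LHCB4.3 alone (22.8% of all genes). It was above mol1-1 replicate 1 for 35 of 36 genes, against 50.7% of all genes, with a median ratio of 1.33 and a range from 0.918 for LHCB4.3 to 7.14 for LHCB1.4. A ratio above 1.5 was reached by 7 genes (5.02% of all genes), and 0 of the 36 were lower by that factor (6.42% of all genes). Between the WT libraries, replicate 2 was above replicate 1 for 15 of 36 genes (49.1% of all genes), with a median ratio of 0.974, and 0 were higher by more than 1.5-fold (1.76% of all genes). Relative to the WT mean, the median log2 value was 0.03 in mol1-1 replicate 1 and 0.45 in mol1-1 replicate 2. With replicate 2 left out, the median log2 fold change was 0.03, and 21 genes were above 0 and 15 below. With mol1-1 replicate 1 left out, the median was 0.44, and 2 of the 36, LHCB1.4 and LHCB2.3, were called higher by edgeR (1.47% of all genes) and 0 lower (0.638%). In that fit the lone mutant library is assumed to vary like the WT libraries, which alone supply the spread. A difference between mol1-1 and WT that only 1 mutant library shows cannot be told apart from a difference between libraries.

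**Figure D3:**
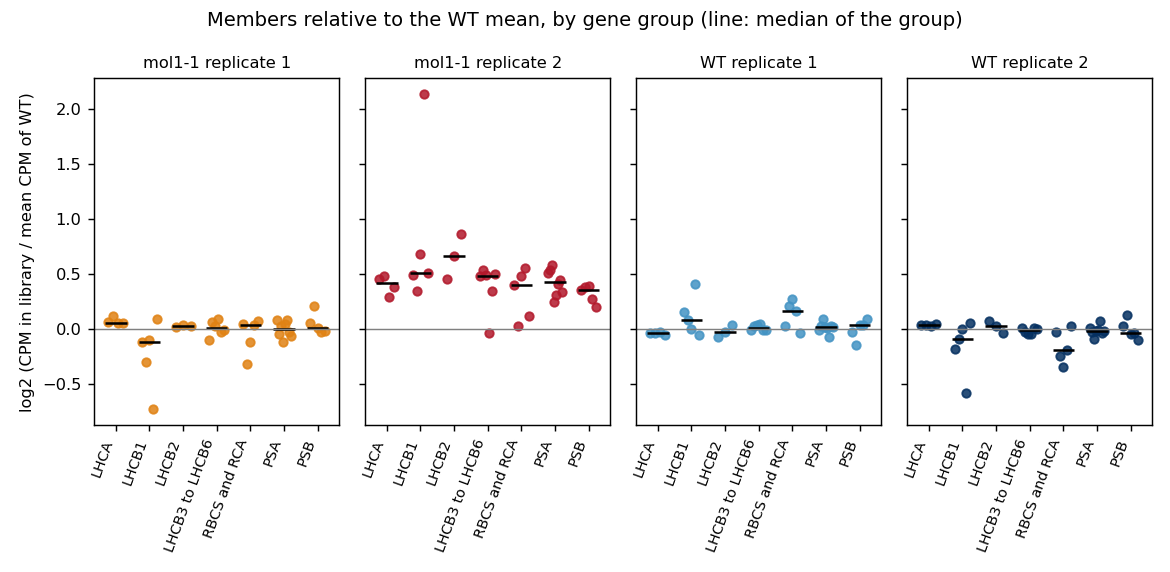
log2 ratio of scaled CPM to the WT mean (vertical) for each gene, by gene group (horizontal), in 1 panel per library, with a line at the median of each group. In mol1-1 replicate 2 all 7 group medians lie above 0, while in each of the other 3 libraries they lie on both sides of 0.

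The 4 LHCA genes encode the antenna of photosystem I and varied alike across the libraries. LHCA4 (AT3G47470) had 1510.0 and 1969 RPKM in the mol1-1 libraries, against 1487 and 1541 RPKM in the WT libraries. LHCA2 (AT3G61470) had 885 and 1185 RPKM in mol1-1, against 844 and 854 RPKM in WT. In each of the 4 genes mol1-1 replicate 2 was the highest library and the other 3 lay close together. The ratio of mol1-1 replicate 2 to replicate 1 was 1.18 to 1.31, and log2 fold changes were 0.18 to 0.31, with standard errors of 0.20 to 0.22 (edgeR, adjusted p = 0.997 for each). LHCA4 made up 37.9% to 38.7% of the LHCA total in all 4 libraries.

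Among the LHCB1 genes, LHCB1.3 and LHCB1.5 together carried most of the transcripts and LHCB1.4 varied most. LHCB1.3 had 3749.8 and 6661 RPKM in the mol1-1 libraries, against 4251 and 4092 RPKM in the WT libraries. Its mutant libraries fell on either side of both WT libraries, and the log2 fold change of 0.34 ± 0.32 (SE) did not pass the test (edgeR, adjusted p = 0.997). The means were 5205 ± 2058 RPKM in mol1-1 and 4171 ± 112 RPKM in WT (SD, n = 2 each). LHCB1.5, chosen after its values were seen, had 4042 and 5579.9 RPKM in mol1-1, against 3860.4 and 4018 RPKM in WT. LHCB1.3 exceeded LHCB1.5 in every library but mol1-1 replicate 1, and made up 43.9% and 49.0% of the LHCB1 total in mol1-1 and 46.5% and 45.8% in WT.

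LHCB1.4 was the least abundant LHCB1 gene in every library. It had 22.3 and 168 RPKM in the mol1-1 libraries, against 52.0 and 25.3 RPKM in the WT libraries. The highest value stood in mol1-1 replicate 2 and the lowest in mol1-1 replicate 1, so the genotypes overlapped entirely. The unique exon reads were 678 and 3925 in mol1-1 and 1330 and 580 in WT, and the unique share stayed at 79.8% to 81.0%. The mutant libraries differed 7.14-fold, the widest gap among the 36, and the log2 fold change was 1.32 ± 0.86 (SE; edgeR, adjusted p = 0.997). LHCB1.4 with mol1-1 replicate 2 alone against both WT libraries had a log2 fold change of 2.12 (edgeR, adjusted p = 0.0223), and with mol1-1 replicate 1 alone one of -0.73. The p-value of such a fit holds no spread between mutant libraries, which here differed 7.14-fold. LHCB1.1 had 309.7 and 489 RPKM in mol1-1, against 397 and 303 RPKM in WT, and the genotypes overlapped.

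Of the LHCB2 genes, the least abundant gave the lowest adjusted p of the 36. LHCB2.3 (AT3G27690) had 41.3 and 76.2 RPKM in the mol1-1 libraries, against 43.8 and 40.3 RPKM in the WT libraries. Replicate 2 of mol1-1 stood apart, and replicate 1 lay between the WT libraries. The log2 fold change was 0.50 ± 0.27 (SE; edgeR, adjusted p = 0.952), and LHCB2.3 with mol1-1 replicate 2 alone against WT had 0.85 (edgeR, adjusted p = 0.0231), where the spread is that of the WT libraries alone. LHCB2.1 had 902 and 1265 RPKM in mol1-1, against 898 and 956 RPKM in WT. LHCB2.2 had 461 and 738 RPKM in mol1-1, against 466 and 468 RPKM in WT. Each copy was highest in mol1-1 replicate 2, and LHCB2.3, whose 50-base words are all unique, showed the widest ratio of the mutant libraries in this group, 1.77.

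LHCB3 completes the trimeric antenna, and LHCB4, LHCB5 and LHCB6 are the monomeric linkers to the photosystem II core. LHCB5 (AT4G10340) had 1197 and 1615 RPKM in the mol1-1 libraries, against 1283 and 1258 RPKM in the WT libraries. LHCB3 (AT5G54270) had 936 and 1456 RPKM in mol1-1, against 1058 and 1036 RPKM in WT. LHCB4.1 (AT5G01530) had 550.0 and 795 RPKM in mol1-1, against 568 and 529 RPKM in WT. In LHCB3 and LHCB5 the mutant libraries lay on both sides of WT. LHCB4.3 (AT2G40100), singled out after its values were seen, was the one gene of the 36 lower in mol1-1 replicate 2 than in replicate 1. It had 30.7 and 29.3 RPKM in mol1-1, against 31.5 and 28.6 RPKM in WT, while its paralogs LHCB4.1 and LHCB4.2 had ratios of 1.39 and 1.37 between the mutant libraries. Its coding sequence was 70.8% and 71.2% identical to theirs, which were 81.9% identical to each other.

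In the Rubisco group, RBCS1A dominated and the B copies varied between libraries of both genotypes. RBCS1A had 1654 and 2199 RPKM in the mol1-1 libraries, against 1735 and 1608 RPKM in the WT libraries, and it made up 84.4% and 82.9% of the RBCS total in mol1-1 and 82.4% and 85.5% in WT. RBCS3B had 244 and 364 RPKM in mol1-1, against 283 and 214 RPKM in WT. RBCS1B had 22.7 and 29.9 RPKM in mol1-1, against 34.7 and 24.4 RPKM in WT. WT replicate 1 was the highest library for RBCS1B, the one gene of the 36 with a log2 fold change below 0 (-0.14 ± 0.20, SE; edgeR, adjusted p = 0.997). In the WT libraries the ratio of replicate 2 to replicate 1 was 0.735 for RBCS1B, 0.655 for RBCS2B and 0.782 for RBCS3B, against 0.961 for RBCS1A. RBCS2B and LHCB1.4 were the only 2 of the 36 lower by more than 1.5-fold in WT replicate 2, against 3.19% of all genes.

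RCA (AT2G39730) encodes the ATPase that reactivates Rubisco and was singled out after its values were seen. It had 500.2 and 534 RPKM in the mol1-1 libraries, against 492 and 497 RPKM in the WT libraries. The mutant libraries were both above WT but only 1.03-fold apart on scaled CPM, and the log2 fold change was 0.10 ± 0.18 (SE; edgeR, adjusted p = 0.997).

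The photosystem I subunits had the same highest library as the LHCA genes. PSAG (AT1G55670), a membrane subunit next to the antenna, had 688 and 991 RPKM in the mol1-1 libraries, against 759 and 701 RPKM in the WT libraries. PSAD1 (AT4G02770), part of the ferredoxin docking site, had 556 and 779.7 RPKM in mol1-1, against 553 and 542 RPKM in WT. In all 8 PSA genes mol1-1 replicate 2 was the highest library, and its ratio to replicate 1 was 1.2 for PSAL to 1.5 for PSAE1. The log2 fold changes were 0.08 for PSAH2 to 0.33 for PSAF, the plastocyanin docking subunit, and none passed the test.

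The PSB genes encode the extrinsic proteins of the oxygen-evolving complex (PSBO1, PSBO2, PSBP1, PSBQ2) and PSBS, which is needed for energy-dependent quenching. PSBO1 (AT5G66570) had 884 and 1130.3 RPKM in the mol1-1 libraries, against 885 and 884 RPKM in the WT libraries. PSBO2 (AT3G50820) had 173 and 203 RPKM in mol1-1, against 144 and 168 RPKM in WT. PSBO2 was higher in both mutant libraries than in either WT library. The same held for PSBO1 on scaled CPM, but on RPKM only mol1-1 replicate 2 stood above the WT libraries. For the 5 genes the ratio of the mutant libraries was 1.13 to 1.3, and the log2 fold change of PSBO2 was 0.30 ± 0.17 (SE; edgeR, adjusted p = 0.973).

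**Figure D4:**
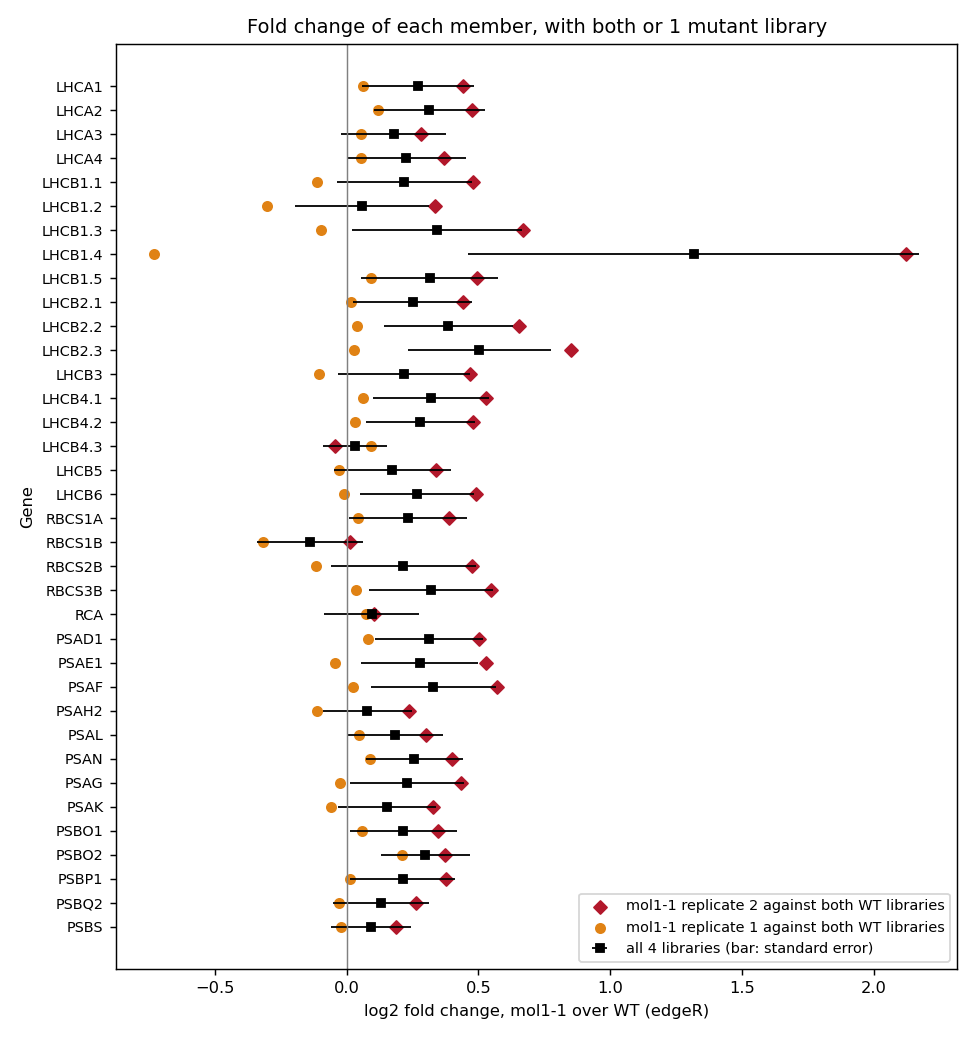
log2 fold change of mol1-1 over WT from edgeR (horizontal) for each of the 36 genes, with black squares and standard error bars for all 4 libraries, red diamonds for mol1-1 replicate 2 against both WT libraries and orange circles for mol1-1 replicate 1 against both WT libraries. The orange circles gather around 0 with a median of 0.03, and the red diamonds lie to the right with a median of 0.44.

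Summed intron reads did not follow the summed exon reads of the 29 genes with more than 1 exon in the files. Their summed exon reads were 18597 and 24123 CPM in the mol1-1 libraries and 18094 and 18325 in the WT libraries. Their intron reads were 27.4 and 27.9 CPM in mol1-1 and 33.1 and 31.1 in WT, from 804 to 1050 reads a library. The exon sum was highest in mol1-1 replicate 2, whereas the intron sums of the mutant libraries were close to each other and below both WT libraries. Over all genes there were 4.31 and 3.79 intron reads per 1000 exon reads in mol1-1 and 4.2 and 4.22 in WT, and mol1-1 replicate 2 was the lowest library for this ratio. For the 29 genes the ratio to their own exon reads was 1.47 and 1.16 in mol1-1 and 1.83 and 1.7 in WT. The ratio over all genes also counts the exon reads of genes with 1 exon, so the levels of the 2 ratios are not directly comparable. These are descriptions of 4 libraries without a test.

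Related photosynthesis genes on lists made with earlier results known also leaned above 0, with smaller medians. None of the genes tested on these lists was called by edgeR. Of 16 other photosystem and antenna genes 14 had a log2 fold change above 0, as did 12 of 13 genes of electron transport and ATP synthase, 14 of 15 of the Calvin-Benson cycle and 12 of 14 of chlorophyll synthesis. The median log2 fold changes were 0.20, 0.15, 0.10 and 0.19 in that order, but 0.011, 0.0036, 0.038 and 0.087 without mol1-1 replicate 2, and the median ratios of mol1-1 replicate 2 to replicate 1 were 1.29, 1.2, 1.12 and 1.22. PSAD2, the second gene for the ferredoxin docking subunit, had 298 and 397 RPKM in mol1-1, against 254 and 254 RPKM in WT (edgeR, log2 fold change 0.48, adjusted p = 0.775). PETE1, a plastocyanin gene, had 65.4 and 91.0 RPKM in mol1-1, against 64.0 and 55.9 RPKM in WT (edgeR, log2 fold change 0.41, adjusted p = 0.881). Both genes were higher in each mutant library than in either WT library. PORB, which encodes a light-dependent protochlorophyllide oxidoreductase, was higher in both mutant libraries than in either WT library. It had 175 and 255 RPKM in mol1-1, against 130 and 122 RPKM in WT, with a log2 fold change of 0.79 ± 0.20 (SE; edgeR, adjusted p = 0.445). CP12-2, a small regulator of Calvin-Benson enzymes, had 60.9 and 75.6 RPKM in mol1-1, against 54.4 and 45.0 RPKM in WT (edgeR, log2 fold change 0.49, adjusted p = 0.589). PSAD2, PETE1, PORB and CP12-2 were picked by the smallest p of their lists, so their separation partly follows from that choice. On scaled CPM, 4, 3, 9 and 6 genes of the lists, in the order above, were higher in mol1-1 without overlap (16.9% of all genes). The counts lower in mol1-1 without overlap were 0, 1, 0 and 1 (16.8% of all genes).

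The known regulators of these genes had values on both sides of 0. Of 14 regulators 13 were tested, 8 were above 0, the median log2 fold change was 0.02, and the median ratio of the mutant libraries was 0.986. PIF3, a phytochrome-interacting factor, had a log2 fold change of 0.29 and the GATA factor gene GNC one of -0.42 (edgeR, adjusted p = 0.929 and 0.997). GLK1, an activator of LHCB genes and chosen after its values were seen, had 27.7 and 23.5 RPKM in the mol1-1 libraries, against 31.1 and 33.8 RPKM in the WT libraries (edgeR, log2 fold change -0.31, adjusted p = 0.934). Of the 11 clock genes 4 were above 0, with a median of -0.08 on the log2 scale that was 0.12 without mol1-1 replicate 2 and -0.26 without mol1-1 replicate 1, and a median ratio of mol1-1 replicate 2 to replicate 1 of 0.731, against 1.03 between the WT libraries. CCA1, a morning factor that binds LHCB1 promoters, had 30.1 and 21.2 RPKM in mol1-1, against 34.7 and 36.6 RPKM in WT (edgeR, log2 fold change -0.44, adjusted p = 0.917). LUX, a part of the evening complex, had a log2 fold change of 0.41 (edgeR, adjusted p = 0.679).

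Sums of markers of the other stem tissues also differed between the mutant libraries. The summed RPKM of 5 xylem and fibre markers was 3248 and 2065 in the mol1-1 libraries and 2452 and 3318 in the WT libraries, and all 5 were lower in mol1-1 replicate 2 than in replicate 1, by ratios of 0.538 (CESA4) to 0.771 (XCP1). The sum of 4 phloem markers was 338 and 270 RPKM in mol1-1 and 280 and 351 RPKM in WT. The sum of 5 epidermal markers was 322 and 239 RPKM in mol1-1 and 369 and 386 RPKM in WT. The 3 guard cell markers summed to 19.1 and 11.2 RPKM in mol1-1 and 21.9 and 19.6 RPKM in WT, and the 3 cambium markers to 157 and 179 RPKM in mol1-1 and 164 and 164 RPKM in WT. By these sums mol1-1 replicate 2 was the lowest library for all these lists except cambium, where it was the highest. WT replicate 1 had the lower WT sum for xylem and phloem. Single markers did not all follow the sums on scaled CPM. Of the 4 phloem markers, 1 was higher in mol1-1 replicate 2 than in replicate 1. Of the 3 cambium markers, 2 were highest in mol1-1 replicate 2. The summed RPKM of the 36 genes was 101% of the WT mean in WT replicate 1 and 98.6% in WT replicate 2. In such bulk samples fewer cells of a type and less RNA per cell cannot be told apart, and the part of tissue makeup in the photosynthesis values was not tested.

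**Figure D5:**
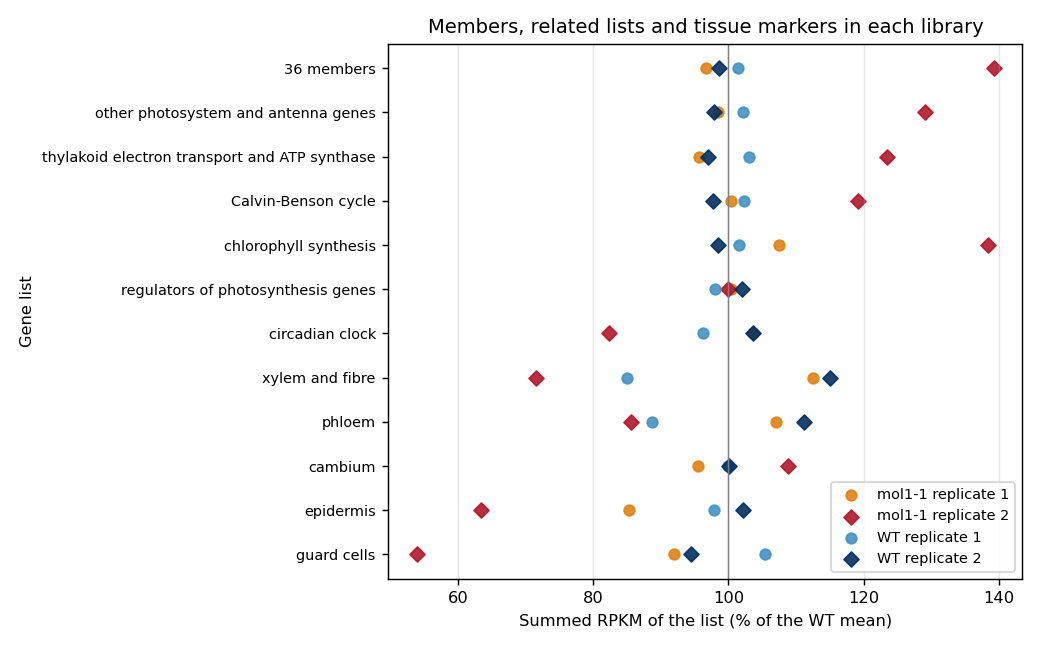
Summed RPKM of each gene list as a percentage of its WT mean (horizontal), 1 row per list, with circles for replicate 1 and diamonds for replicate 2 of mol1-1 (orange, red) and WT (light blue, dark blue). For the 36 genes mol1-1 replicate 2 stood at 139% and mol1-1 replicate 1 at 96.7%, while for xylem and fibre markers the same libraries stood at 71.6% and 113%.

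The upstream regions of the genes were searched for motifs known from light and clock responses, and for the CCAAT and TATA boxes. The 250 bases before the annotated start of each gene were read from RefSeq TAIR10.1 on the gene's strand, both strands were searched, and the same window of 27443 protein-coding genes gave the background. CCAAT, the letters of the CCAAT box, stood in 25 of the 36 windows (69.4%, against 46.0% of all), and in 17 of the 18 LHCA and LHCB genes against 8 of the 18 others. The I-box GATAAG stood in 11 windows (30.6%, against 12.3%), and in 0 of the 5 LHCB1 genes. The G-box CACGTG stood in 7 (19.4%, against 6.49%). The CCA1 site AAAAATCT stood in 4 (11.1%, against 6.69%), those of LHCA4, LHCB1.1, LHCB1.4 and PSAN. The evening element AAATATCT stood in 0 (against 4.79%), and TATAAA in 15 (41.7%, against 47.3%). None of these motifs contains another, and a match describes letters only.

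Windows of 4 genes are shown, those of the 2 abundant LHCB1 copies, of LHCB1.4, whose level varied most, and of RCA, whose level varied little. Capitals mark CCAAT (or ATTGG, its other strand), GATAAG and AAAAATCT. They lie at chr1:10477635-10477884 on the plus strand (LHCB1.3), chr2:14524357-14524606 on the plus strand (LHCB1.4), chr2:14523569-14523818 on the minus strand (LHCB1.5) and chr2:16573693-16573942 on the minus strand (RCA), in TAIR10.1.
LHCB1.3: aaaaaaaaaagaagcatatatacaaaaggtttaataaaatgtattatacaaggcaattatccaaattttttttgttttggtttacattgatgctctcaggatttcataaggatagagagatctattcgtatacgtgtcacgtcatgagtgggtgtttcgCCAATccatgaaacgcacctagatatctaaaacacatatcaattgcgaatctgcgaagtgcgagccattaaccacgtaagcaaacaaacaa
LHCB1.4: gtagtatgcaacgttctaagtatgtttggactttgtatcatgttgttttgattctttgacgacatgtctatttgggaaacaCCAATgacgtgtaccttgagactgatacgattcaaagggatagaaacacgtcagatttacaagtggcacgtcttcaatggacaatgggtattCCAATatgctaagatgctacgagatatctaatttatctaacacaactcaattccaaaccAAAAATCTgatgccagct
LHCB1.5: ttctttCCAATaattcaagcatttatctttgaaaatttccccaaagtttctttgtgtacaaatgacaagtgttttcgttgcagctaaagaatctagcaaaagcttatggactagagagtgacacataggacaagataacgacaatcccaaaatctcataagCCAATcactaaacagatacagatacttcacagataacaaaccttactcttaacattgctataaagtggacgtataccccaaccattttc
RCA: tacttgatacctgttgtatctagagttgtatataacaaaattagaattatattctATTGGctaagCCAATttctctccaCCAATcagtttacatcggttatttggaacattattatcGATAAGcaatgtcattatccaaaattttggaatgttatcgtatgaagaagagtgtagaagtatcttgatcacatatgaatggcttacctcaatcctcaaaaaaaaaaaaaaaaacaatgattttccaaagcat
LHCB1.4 alone of these 4 holds AAAAATCT, close to its start, and RCA alone holds GATAAG. LHCB1.4 and LHCB1.5 are transcribed away from each other, so the windows shown lie in the 1038 bp between them. LHCB1.4 differed 7.14-fold between the mutant libraries and LHCB1.5 1.33-fold. The other genes with AAAAATCT, LHCB1.1, LHCA4 and PSAN, had ratios of 1.52, 1.26 and 1.25. Of the genes with GATAAG, RCA had a ratio of 1.03 and the others had 1.23 (PSBQ2) to 1.51 (RBCS2B). The windows were chosen by level, and a link between motif and level was not tested.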

How the data were processed

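The members and lists were chosen with earlier results of these data known. Polyadenylated RNA of 4 stem base libraries was sequenced, 2 per genotype. Per the file headers, each deposited table gives read counts per locus (total and unique reads in exons and genes, junction and intron reads), RPKM and a median coverage, and the coverage was not used. Recomputing the authors' RPKM from total exon reads, exon length and the library's total gene reads gave the deposited values to a relative difference of 2.15e-14. The submitters' processing notes name the build TAIR10. Aligner, counter, strand and read length are not stated there. The number of unmapped per-sample columns was 0. Of exon reads, 0.0586% to 0.0864% stood in 5 rows without a locus, which were dropped, and repeated loci were summed.

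Differences were tested on total exon reads in R 4.3.3 with edgeR 4.0.16 (filterByExpr, TMM, quasi-likelihood F test, Benjamini-Hochberg adjustment over 19024 genes, threshold 0.05). The common biological coefficient of variation was 16.5%. DESeq2 1.42.0 and limma 3.58.1 served as alternatives, next to other scalings, filters and read classes, log2 RPKM, offsets for GC content and exon length (known for 99.8% of genes), a replicate block and leaving out each library. Of these fits, only the main edgeR fit was also run on simulated counts with known changes. Ratios between libraries used scaled counts per 1000000 reads plus 0.5. Coding sequences were aligned with mafft 7.526. Values per library are given for the member of each group with the highest mean RPKM, the smallest p and the lowest unique share. They are also given for the gene of a related list with the smallest p or the largest fold change, except PIF3, GNC and LUX. For PIF3, GNC and LUX only the fold change and adjusted p are given. Genes outside that rule are said to be chosen afterwards or given in ranges. Depth was 28017346 to 37059413 exon reads, of which 96.9% to 97.1% were unique. Replicates of a genotype differed by more than counting error, with chi-square per degree of freedom of 64.5 in mol1-1 and 29.7 in WT.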

Additional observations from a re-analysis of the deposited data

How the results depend on the processing

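The 36 genes gave 0 calls under every setting that kept all 4 libraries, and 0 to 2 when 1 library was left out, the 2 being LHCB1.4 and LHCB2.3 without mol1-1 replicate 1. Their median log2 fold change was 0.13 to 0.23 over the settings with all 4 libraries, lowest with GC and exon length offsets (0.13), and 0.03 to 0.44 when 1 library was left out. No scaling moved the median of all genes by 0.1. Over all genes, 38 were called, against 290 by DESeq2, 141 without a filter and 37 to 409 when 1 library was left out (89 without WT replicate 2, 212 without mol1-1 replicate 2). When 1 library was left out, the log2 fold changes of 16 of the 36 genes took both signs. Of the genes named by rule these were RBCS1B (-0.33 to 0.10), LHCB1.1 (-0.11 to 0.48), LHCB1.3 (-0.10 to 0.67), LHCB1.4 (-0.73 to 2.12), LHCB3 (-0.10 to 0.47), LHCB5 (-0.028 to 0.34) and PSAG (-0.027 to 0.44), and the 9 others were LHCB1.2 (-0.30 to 0.34), LHCB4.3, LHCB6, RBCS2B, PSAE1, PSAH2, PSAK, PSBQ2 and PSBS. The list medians ranged from 0.011 to 0.34 for other photosystem genes, from 0.0036 to 0.27 for electron transport, from 0.038 to 0.18 for the Calvin-Benson cycle, from 0.087 to 0.27 for chlorophyll synthesis and from -0.26 to 0.12 for clock genes. The causes were not tested. The labels number the libraries of each genotype, but their deviations from the genotype means had a correlation of -0.238 for the same number, so the numbers gave no sign of pairing. With the replicate block, 136 genes and 0 of the 36 were called, with a median of 0.22, and with the block and the GC and length offsets 18 genes and 0 of the 36. With the pairing crossed, added after seeing the data, 248 genes and 0 of the 36 were called. Levels of the 11 genes with shared reads depend on how those reads were assigned.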
